A study of Homo sapiens with 12 samples.

Results

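Most of the genes described here build the nuclear pore or carry cargo through it. All were chosen by symbol and not by shown function: names starting NUP, KPNA, KPNB, IPO, XPO or RANBP followed by a digit, and RAN, RANGAP1, RCC1, AAAS, RAE1, SEH1L, TPR, NDC1, POM121, CSE1L and TNPO1. Of the 28008 genes in the count tables, 61 met this rule, and 5 further symbols that were pseudogenes or hyphenated (IPO5P1, NUP210P1, IPO11-LRRC70, IPO9-AS1 and NUP50-AS1) were left out. Expression was measured by RNA-seq in QGP-1 and BON-1, 2 human pancreatic neuroendocrine tumour (pNET) cell lines. All 12 libraries came from cells carrying tet-MUC1shRNA, a doxycycline-inducible hairpin against MUC1 in the pLKO-tet-puro vector, after selection in puromycin. Cells received 0.1% DMSO (vehicle) or 500 ng/mL doxycycline (DOX) for 7 days, with 3 libraries for each line and treatment. QGP-1 was grown in RPMI 1640 and BON-1 in DMEM/F-12, so line and medium cannot be told apart. No cells with DOX and a control hairpin were analysed here, so DOX and MUC1 silencing cannot be told apart either. DMSO is named for the vehicle alone, so its effect cannot be separated from that of treatment. The p-values measure the spread between triplicate cultures.

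Nuclear pores are channels in the nuclear envelope built from nucleoporins in stacked rings, with filaments on the cytoplasmic side and a basket on the nuclear side. Importins bind cargo in the cytoplasm and release it when they meet the GTPase RAN loaded with GTP inside the nucleus, whereas exportins need RAN-GTP to hold their cargo. RCC1 on chromatin loads RAN with GTP, and RANGAP1 at the pore makes it hydrolyse that GTP. Dividing cells build new pores every cycle, and RAN also guides spindle assembly in mitosis. In bulk RNA, fewer cells of one kind and less RNA per cell cannot be told apart.

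Library totals ran from 38224144 to 50525926 counts in QGP-1 and from 15981954 to 28484324 in BON-1, so the BON-1 values rest on less depth. The targeted gene was lower in each DOX library. Levels are given as CPM, counts scaled to a common library size. In QGP-1, MUC1 (chr1:155185824-155192916, GRCh38, minus strand) read 7.19, 5.81 and 5.65 CPM with vehicle and 0.705, 1.04 and 0.744 CPM with DOX, and in BON-1 20.6, 20.7 and 15.6 CPM with vehicle and 1.48, 2.65 and 3.97 CPM with DOX. Its log2 fold changes were -2.91 and -2.79. Of 12 neuroendocrine markers, the remaining 11 were detected in each line, with NEUROD1 at 0 in QGP-1 and ISL1 at 0 in BON-1. With DOX, CHGB, SSTR2, SCG3 and ISL1 were higher and UCHL1 lower in QGP-1. In BON-1, SSTR2, CHGA, SYP and PCSK1 were lower and SCG2 and SCG3 higher. The 12 summed to 5809 to 6634 CPM with vehicle and 6584 to 7194 CPM with DOX in QGP-1. In BON-1 they summed to 12026 to 15483 and 9676 to 10141 CPM. The summed level of 11 markers of other cell types ranged from 87.8 to 156 CPM with vehicle and from 32.04 to 42.9 CPM with DOX in QGP-1, and from 61.5 to 73.5 and 71.5 to 78.7 CPM in BON-1. In QGP-1 most of that sum was PRSS1 (121 ± 35.2 CPM with vehicle, SD, n = 3), while the leukocyte gene PTPRC was at 0 with vehicle. CPA1 was at 0 in every QGP-1 library. Of these 11 markers, 4 had enough counts to test in QGP-1 and 5 in BON-1. With DOX, COL1A1 and PRSS1 were lower in QGP-1, and in BON-1 CPA1 and PRSS1 were lower and CD68 higher. Whether those cells or genes bear on the values below was not tested.

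With DOX, the nuclear pore and transport genes split in both directions at about the rate of all genes. The edgeR quasi-likelihood test, with a gene called when its Benjamini-Hochberg adjusted p over all genes tested was below 0.05 whatever its fold, took in 59 of the 61 genes in QGP-1 and 58 in BON-1. KPNA7 and RANBP3L, at 4 counts or fewer in every library, were tested in neither line, and NUP210L, at 4 to 12 counts per library, was left out in BON-1. In QGP-1, 12 were lower (20.3%, beside 17.7% of all genes tested) and 11 higher (18.6%, beside 17.3%). In BON-1, 14 were lower (24.1%, beside 18.3%) and 9 higher (15.5%, beside 17.0%). The 9 higher became 5 without BON-1 DOX replicate 3, and were 5 to 8 over the 6 fits that each left out a library. In either direction that made 23 genes in each line (39% and 39.7%, beside 35.0% and 35.3%). Scaling BON-1 by library size gave 19 lower and 6 higher. On the deposited TPM values, whose overall shift is described next, limma gave 0 lower and 52 higher in QGP-1 (0 and 52 at an unadjusted p below 0.05) and 1 lower, NUP43, and 0 higher in BON-1 (5 and 0). The median log2 fold change was -0.02 over these genes in QGP-1 and -0.06 in BON-1, each beside -0.01 for all genes tested. Libraries did not overlap between treatments, with DOX below vehicle, for 17 of 59 genes in QGP-1 and 20 of 58 in BON-1. Over all genes tested the shares were 23.2% and 23.9%. With DOX above vehicle it was 14 of 59 and 12 of 58, beside 23.5% and 22.4% of all genes tested. Most genes given by library below were picked for their call or the size of their change. For those genes a lack of overlap between treatments is no separate result.

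Over the 58 genes tested in both lines, 5 fell in both (8.62%, beside 7.23% of all genes tested in both) and 6 rose in both (10.3%, beside 6.88%). Those that fell were RAN, the import receptor IPO5, the pore proteins AAAS and NUP43, and NUP62CL, named for its likeness to NUP62. Those that rose were the pore proteins RANBP2 and TPR, the adaptors KPNA1 and KPNA6, the import receptor TNPO1 and the export receptor XPO6. A further 2 were called in opposite directions (3.45%, beside 2.69%), 10 in QGP-1 alone, 10 in BON-1 alone and 25 in neither. The authors' TPM tables carry a shift of their own: over all genes the median log2 fold change on log2(TPM + 1) was 0.59 in QGP-1 and -0.31 in BON-1. Tested on that scale with limma, 10 of 20 QGP-1 calls and 14 of 20 BON-1 calls kept their sign. These are the calls of the genes given below in every library. All 20 in each line kept it once that median was removed. The sign of the other calls was not checked gene by gene. Directions below are therefore relative to the bulk of genes.

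**Figure D1:**
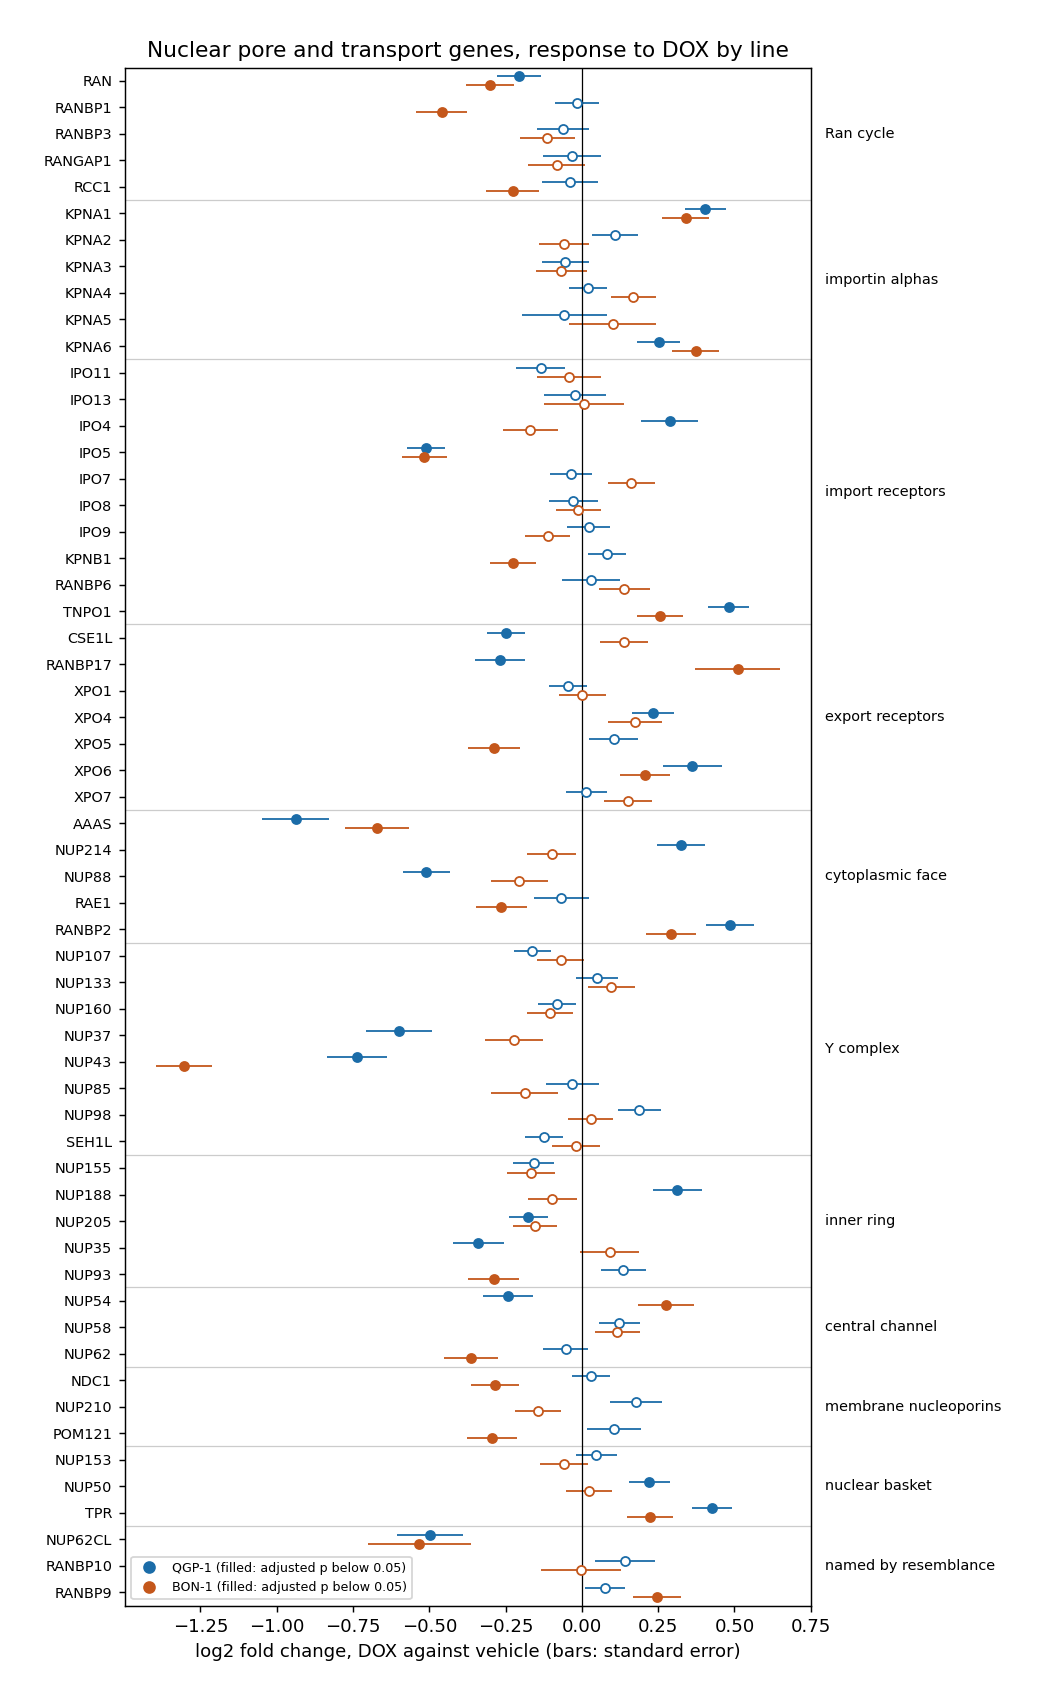
Log2 fold change with DOX against vehicle (x axis, bars: standard error) of each tested gene in QGP-1 (blue) and BON-1 (orange), grouped by role, with filled points for adjusted p below 0.05. The largest values are those of NUP43 and AAAS on the negative side. The 11 genes called the same way in both lines have both points filled on one side of 0. On uncentred TPM, 10 of the 20 QGP-1 calls of genes given in every library and 6 of the 20 in BON-1 change sign.

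The RefSeq promoter table (GRCh38.p14) held 54 of the 61 genes. The stretches below are the 150 bases before the annotated gene start of one gene that fell in both lines with an E-box, one that fell with a CCAAT box, and 2 that rose with a CCAAT box, shown so that the motifs can be seen in place. Capitals mark CACGTG (E-box, the same on both strands) or CCAAT, written ATTGG when it lies on the other strand.
RAN, chr12:130871887-130872036, plus strand: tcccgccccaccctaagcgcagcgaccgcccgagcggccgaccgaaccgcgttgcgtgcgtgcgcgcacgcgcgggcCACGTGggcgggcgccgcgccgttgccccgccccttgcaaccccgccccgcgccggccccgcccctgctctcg
NUP62CL, chrX:107206434-107206583, minus strand: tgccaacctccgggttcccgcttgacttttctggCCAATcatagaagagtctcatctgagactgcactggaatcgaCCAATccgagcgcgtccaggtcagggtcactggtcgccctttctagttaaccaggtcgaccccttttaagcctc
KPNA6, chr1:32107906-32108055, plus strand: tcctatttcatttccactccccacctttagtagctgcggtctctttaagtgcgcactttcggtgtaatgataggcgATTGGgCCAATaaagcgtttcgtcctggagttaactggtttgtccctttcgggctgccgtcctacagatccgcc
XPO6, chr16:28211966-28212115, minus strand: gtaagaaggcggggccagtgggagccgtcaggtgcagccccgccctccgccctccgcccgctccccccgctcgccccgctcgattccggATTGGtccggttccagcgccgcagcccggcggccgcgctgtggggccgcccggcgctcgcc
The RAN stretch holds the E-box between GC-rich runs, the NUP62CL stretch holds CCAAT at 2 places, and the KPNA6 stretch holds the box on both strands with 1 base between. Searched on both strands of the 250 bases before each start, CACGTG stood in 11.1% of the 54 promoters and in 6.49% of all 27305, CCAAT in 42.6% and 33%, GCGGGAA (an E2F-type site) in 14.8% and 5.59%, and GGGCGG (the GC box) in 55.6% and 42.3%. Among the genes that fell in both lines and had a promoter, CACGTG stood in 1 of 4 (RAN), CCAAT in 2 of 4 (IPO5 and NUP62CL), GCGGGAA in 1 of 4 and GGGCGG in 2 of 4. Among those that rose, CACGTG stood in 0 of 6, CCAAT in 4 of 6 (KPNA6, TNPO1, TPR and XPO6), GCGGGAA in 1 of 6 and GGGCGG in 4 of 6. The set of 27305 was not limited to genes expressed here, so these shares are not a matched comparison, and no test was run on them. A match is a run of letters and not a shown binding site.

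In the Ran cycle, RAN itself was lower with DOX in both lines, RANBP1 and RCC1 in BON-1, and RANGAP1 in neither. RAN (chr12:130872037-130877678, plus strand) read 437, 473 and 494 CPM with vehicle and 434, 381 and 403 CPM with DOX in QGP-1, and 624, 619 and 639 CPM with vehicle and 548, 482 and 497 CPM with DOX in BON-1. Every DOX library lay below every vehicle library of its line (log2 fold change -0.21, SE 0.07, adjusted p = 0.0374 in QGP-1 and log2 fold change -0.30, SE 0.08, adjusted p = 0.00316 in BON-1). Where values are given in pairs below, QGP-1 comes first and BON-1 second. The gap in QGP-1 was narrow, 434 CPM in the highest DOX library against 437 CPM in the lowest vehicle library. That call was lost without vehicle replicate 2 or 3 or DOX replicate 2 or 3, with log2 fold changes between -0.25 and -0.16 over the 6 fits that each left out a library, while in BON-1 it passed in all 6. RAN has 9 annotated pseudogenes, and how reads shared with them were counted is not given in the sources used here. RAN and NUP43 are also on gene lists that the study drew from these libraries. The study measured RAN by qRT-PCR in both lines as well, and reports RAN among the genes downregulated with MUC1-C silencing.

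RANBP1, which helps RANGAP1 strip RAN-GTP from transport receptors, read 115, 121 and 119 CPM with vehicle and 126, 111 and 113 CPM with DOX in QGP-1, and 181, 159.9 and 150.0 CPM with vehicle and 126, 124 and 108 CPM with DOX in BON-1. The QGP-1 libraries overlapped (log2 fold change -0.02, SE 0.07, adjusted p = 0.886), whereas in BON-1 all DOX libraries lay below all vehicle libraries (log2 fold change -0.46, SE 0.08, adjusted p = 7.92e-05). The difference between the lines passed its own test, as given below. RCC1, the exchange factor that loads RAN with GTP, read 26.5, 27.3 and 24.1 CPM with vehicle and 25.1, 26.6 and 24.1 CPM with DOX in QGP-1, and 66.5, 60.3 and 68.2 CPM with vehicle and 52.8, 57.8 and 55.9 CPM with DOX in BON-1. Its libraries overlapped in QGP-1 (log2 fold change -0.04, SE 0.09, adjusted p = 0.782) and did not in BON-1 (log2 fold change -0.23, SE 0.09, adjusted p = 0.0422). The BON-1 call was lost with DESeq2 (adjusted p = 0.0586), with both lines in 1 edgeR fit (0.0708) and without vehicle replicate 1 or 3 or DOX replicate 1 (-0.29 to -0.20 over the 6 fits). RANGAP1, the GTPase-activating protein, read 69.3, 59.3 and 57.4 CPM with vehicle and 62.5, 65.6 and 53.6 CPM with DOX in QGP-1, and 74.5, 69.5 and 62.3 CPM with vehicle and 66.5, 71.8 and 56.8 CPM with DOX in BON-1. Its treatments overlapped in both lines (log2 fold change -0.03, SE 0.10, adjusted p = 0.822 and log2 fold change -0.08, SE 0.09, adjusted p = 0.527). RANBP3 was called in neither line.

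The importin alphas are adaptors that hold the classical nuclear localization signal of a cargo, and 2 of the 6 tested, KPNA1 and KPNA6, rose in both lines. KPNA1 (chr3:122421902-122514945, minus strand) read 93.8, 87.2 and 90.5 CPM with vehicle and 124, 117 and 118 CPM with DOX in QGP-1, and 151, 136 and 138 CPM with vehicle and 167, 185 and 185 CPM with DOX in BON-1. The treatments did not overlap in either line (log2 fold change 0.40, SE 0.07, adjusted p = 4.44e-04 and log2 fold change 0.34, SE 0.08, adjusted p = 9.58e-04). KPNA6 (chr1:32108056-32176563, plus strand), whose promoter with the paired CCAAT boxes is printed above, read 201, 197 and 195 CPM with vehicle and 251, 239.7 and 215 CPM with DOX in QGP-1, and 261, 236 and 234 CPM with vehicle and 295, 329.7 and 322 CPM with DOX in BON-1. Again all DOX libraries lay above all vehicle libraries (log2 fold change 0.25, SE 0.07, adjusted p = 0.0129 and log2 fold change 0.37, SE 0.08, adjusted p = 3.54e-04). KPNA2, an adaptor linked to proliferation, read 528, 505 and 482 CPM with vehicle and 584, 559 and 490.3 CPM with DOX in QGP-1, and 524, 462 and 496 CPM with vehicle and 451, 448 and 523 CPM with DOX in BON-1. Its treatments overlapped in both lines (log2 fold change 0.11, SE 0.07, adjusted p = 0.282 and log2 fold change -0.06, SE 0.08, adjusted p = 0.606). KPNA3, KPNA4 and KPNA5 were also called in neither line.

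Of the 10 import receptors, IPO5 fell and TNPO1 rose in both lines, and KPNB1 and IPO4 were each called in one. IPO5 (chr13:97953658-98024296, plus strand), which carries ribosomal proteins and histones, read 286, 293 and 302 CPM with vehicle and 211, 206 and 202 CPM with DOX in QGP-1, and 422, 388 and 415 CPM with vehicle and 290.5, 275 and 291 CPM with DOX in BON-1. The drop was of nearly the same size in the lines, with no overlap (log2 fold change -0.51, SE 0.06, adjusted p = 3.84e-05 and log2 fold change -0.52, SE 0.07, adjusted p = 3.55e-06). TNPO1 (chr5:72816312-72916733, plus strand), or transportin-1, which imports RNA-binding proteins, read 460.2, 456 and 488 CPM with vehicle and 612, 692 and 656 CPM with DOX in QGP-1, and 497, 469.9 and 475 CPM with vehicle and 563, 566 and 591 CPM with DOX in BON-1. All DOX libraries lay above all vehicle libraries (log2 fold change 0.48, SE 0.07, adjusted p = 1.16e-04 and log2 fold change 0.26, SE 0.08, adjusted p = 0.00891). The BON-1 call was lost without vehicle replicate 3, with the log2 fold change between 0.21 and 0.28 over the 6 fits.

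KPNB1, importin beta itself, read 589, 593 and 577 CPM with vehicle and 645, 622 and 593 CPM with DOX in QGP-1, and 425, 394 and 404 CPM with vehicle and 339, 366 and 341 CPM with DOX in BON-1. In QGP-1 the DOX libraries lay above the vehicle ones but the test was not passed (log2 fold change 0.08, SE 0.06, adjusted p = 0.343), and in BON-1 they lay below (log2 fold change -0.23, SE 0.07, adjusted p = 0.0193), a call lost without vehicle replicate 1 or DOX replicate 1 (-0.27 to -0.20). IPO4, an importer of newly made histones, read 33.3, 31.00 and 29.02 CPM with vehicle and 39.6, 39.9 and 34.3 CPM with DOX in QGP-1, and 122, 102 and 108 CPM with vehicle and 97.04, 111 and 87.5 CPM with DOX in BON-1. It was called in QGP-1 (log2 fold change 0.29, SE 0.09, adjusted p = 0.0264), where the call was lost without vehicle replicate 2 or 3 or DOX replicate 1 or 2 (0.24 to 0.35), and its BON-1 libraries overlapped (log2 fold change -0.17, SE 0.09, adjusted p = 0.145). IPO7, IPO8, IPO9, IPO11, IPO13 and RANBP6 were called in neither line.

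Among the 7 export receptors, XPO6 was higher in both lines, while XPO1, the main exporter of proteins, was called in neither. XPO1 read 649.6, 641 and 680.0 CPM with vehicle and 636, 651 and 621 CPM with DOX in QGP-1, and 643, 621 and 658 CPM with vehicle and 634, 621 and 669 CPM with DOX in BON-1. Its treatments overlapped (log2 fold change -0.05, SE 0.06, adjusted p = 0.5996 and log2 fold change 0.0015, SE 0.08, adjusted p = 0.9903). XPO6 (chr16:28097976-28211965, minus strand), which exports actin with profilin, read 88.3, 93.99 and 72.9 CPM with vehicle and 117, 113 and 98.1 CPM with DOX in QGP-1, and 144, 126 and 118 CPM with vehicle and 142, 149.8 and 156 CPM with DOX in BON-1. The treatments were apart in QGP-1 (log2 fold change 0.36, SE 0.10, adjusted p = 0.00983) but overlapped in BON-1 (log2 fold change 0.21, SE 0.08, adjusted p = 0.0472). The BON-1 call passed in 1 of the 6 fits that each left out a library, the one without vehicle replicate 1 (0.14 to 0.29 over the 6), and was lost with library-size scaling (adjusted p = 0.108), with no filter on low counts (0.0715), with a minimum of 10 counts in every library (0.0557) and with both lines in 1 fit (0.0961), all from edgeR.

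CSE1L, which returns importin alphas to the cytoplasm, read 315, 316 and 318 CPM with vehicle and 274, 263 and 260.4 CPM with DOX in QGP-1, and 609, 523 and 561 CPM with vehicle and 603, 623 and 637 CPM with DOX in BON-1. It was lower in QGP-1 with no overlap (log2 fold change -0.25, SE 0.06, adjusted p = 0.00603), and its BON-1 libraries overlapped (log2 fold change 0.14, SE 0.08, adjusted p = 0.179). XPO5, the exporter of microRNA precursors, read 93.7, 92.4 and 80.9 CPM with vehicle and 98.4, 100.4 and 88.3 CPM with DOX in QGP-1, and 76.5, 70.7 and 71.1 CPM with vehicle and 56.7, 64.02 and 58.02 CPM with DOX in BON-1. The overlap was in QGP-1 here (log2 fold change 0.10, SE 0.08, adjusted p = 0.341), and BON-1 was lower (log2 fold change -0.29, SE 0.09, adjusted p = 0.009003). RANBP17 (chr5:170861870-171300015, plus strand), a relative of XPO7, read 42.9, 45.8 and 47.02 CPM with vehicle and 37.6, 35.5 and 39.6 CPM with DOX in QGP-1, and 11.6, 15.7 and 16.1 CPM with vehicle and 19.8, 19.2 and 22.5 CPM with DOX in BON-1. It fell in QGP-1 (log2 fold change -0.27, SE 0.08, adjusted p = 0.0209) and rose in BON-1 (log2 fold change 0.51, SE 0.14, adjusted p = 0.00478), without overlap in either. Its call in QGP-1 did not hold without vehicle replicate 2 or 3 or DOX replicate 2 (-0.31 to -0.23) and with both lines in 1 fit (adjusted p = 0.0566, edgeR). XPO4 was called higher in QGP-1 (log2 fold change 0.23, adjusted p = 0.0187) and not in BON-1 (0.17, adjusted p = 0.123). Its difference between the lines was not called (-0.05, adjusted p = 0.854). XPO7 was called in neither line.

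At the cytoplasmic face of the pore, AAAS fell and RANBP2 rose in both lines. AAAS (chr12:53307456-53324864, minus strand), aladin, the protein affected in Allgrove syndrome, read 42.5, 46.9 and 40.6 CPM with vehicle and 25.9, 22.6 and 19.3 CPM with DOX in QGP-1, and 60.1, 55.6 and 52.3 CPM with vehicle and 37.8, 39.3 and 28.7 CPM with DOX in BON-1. No libraries overlapped (log2 fold change -0.94, SE 0.11, adjusted p = 2.46e-05 and log2 fold change -0.67, SE 0.11, adjusted p = 1.18e-05), and the QGP-1 value was the largest drop among these genes in that line. RANBP2 (chr2:108719482-108785810, plus strand), the filament protein that anchors SUMO-modified RANGAP1, read 1118, 994 and 936 CPM with vehicle and 1329, 1536 and 1402 CPM with DOX in QGP-1, and 1453, 1346 and 1374 CPM with vehicle and 1652, 1744 and 1710.0 CPM with DOX in BON-1. All DOX libraries lay above all vehicle libraries (log2 fold change 0.49, SE 0.08, adjusted p = 3.45e-04 and log2 fold change 0.29, SE 0.08, adjusted p = 0.00585). Of its 7 near-identical RGPD copies, 3 were at 0 in QGP-1 and 4 in BON-1. The copies summed to 11.8 to 14.03 CPM with vehicle and 14.2 to 17.6 CPM with DOX in QGP-1, and to 16.2 to 20.2 and 15.5 to 19.95 CPM in BON-1. The copy RGPD3 was also higher with DOX in QGP-1 (log2 fold change 0.51, SE 0.16, adjusted p = 0.0279) and was not called in BON-1. Its part in the value of RANBP2 was not tested.

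NUP88 and NUP214 form one complex with a part in mRNA export, yet their values in QGP-1 went opposite ways. NUP88 read 164, 149.7 and 166 CPM with vehicle and 123, 109 and 105 CPM with DOX in QGP-1, and 56.5, 58.5 and 50.95 CPM with vehicle and 50.6, 49.9 and 43.8 CPM with DOX in BON-1. It fell in QGP-1 (log2 fold change -0.51, SE 0.08, adjusted p = 1.88e-04), and in BON-1 the libraries were apart without passing the test (log2 fold change -0.20, SE 0.09, adjusted p = 0.0856). NUP214 read 100.3, 95.8 and 84.4 CPM with vehicle and 119, 122 and 111 CPM with DOX in QGP-1, and 94.1, 88.6 and 85.01 CPM with vehicle and 81.2, 85.5 and 83.4 CPM with DOX in BON-1. It rose in QGP-1 (log2 fold change 0.32, SE 0.08, adjusted p = 0.00545), and its BON-1 libraries overlapped (log2 fold change -0.10, SE 0.08, adjusted p = 0.357). RAE1, a partner of NUP98 in mRNA export, was called lower in BON-1 (log2 fold change -0.26) and not called in QGP-1 (-0.07). Its difference between the lines was not called.

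The Y complex is the outer scaffold of the pore, and NUP98 is grouped with it here. Of these 8 genes, NUP43 fell in both lines and NUP37 in QGP-1. NUP43 (chr6:149724315-149749665, minus strand) read 37.9, 37.5 and 40.1 CPM with vehicle and 20.4, 25.8 and 23.3 CPM with DOX in QGP-1, and 121, 95.2 and 106 CPM with vehicle and 42.1, 45.1 and 43.2 CPM with DOX in BON-1. DOX libraries lay far below vehicle in both lines (log2 fold change -0.74, SE 0.10, adjusted p = 7.04e-05 and log2 fold change -1.30, SE 0.09, adjusted p = 6.41e-12), and in BON-1 the mean with DOX was 43.5 ± 1.51 CPM against 107 ± 12.8 (SD, n = 3), the largest change among these genes in either line. NUP37, which also sits on an arm of the Y, read 24.1, 30.8 and 31.2 CPM with vehicle and 19.7, 18.9 and 18.3 CPM with DOX in QGP-1, and 65.2, 82.2 and 83.96 CPM with vehicle and 71.2, 60.1 and 66.8 CPM with DOX in BON-1. It fell in QGP-1 (log2 fold change -0.60, SE 0.11, adjusted p = 8.09e-04), while in BON-1 the treatments overlapped, with 2 DOX libraries above the lowest vehicle library (log2 fold change -0.22, SE 0.10, adjusted p = 0.0709). NUP107, NUP133, NUP160, NUP85, SEH1L and NUP98 were called in neither line, with log2 fold changes between -0.19 and 0.19.

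In the inner ring, 5 genes that hold the pore together, calls differed by line. NUP35 read 58.7, 63.8 and 69.2 CPM with vehicle and 49.5, 49.05 and 53.1 CPM with DOX in QGP-1, and 60.3, 62.03 and 55.01 CPM with vehicle and 71.2, 53.04 and 64.9 CPM with DOX in BON-1. It fell in QGP-1 without overlap (log2 fold change -0.34, SE 0.08, adjusted p = 0.00562), whereas the BON-1 treatments overlapped (log2 fold change 0.09, SE 0.10, adjusted p = 0.501). NUP93 read 109.8, 96.1 and 97.9 CPM with vehicle and 114, 112 and 108 CPM with DOX in QGP-1, and 79.03, 71.1 and 74.4 CPM with vehicle and 62.3, 62.7 and 58.8 CPM with DOX in BON-1. Here QGP-1 overlapped (log2 fold change 0.14, SE 0.07, adjusted p = 0.167) and BON-1 was lower (log2 fold change -0.29, SE 0.08, adjusted p = 0.00777). NUP188, a close partner of NUP93, read 137, 143 and 122 CPM with vehicle and 170.0, 179 and 152 CPM with DOX in QGP-1, and 111, 101 and 108 CPM with vehicle and 92.3, 106 and 100.5 CPM with DOX in BON-1. It rose in QGP-1 (log2 fold change 0.31, SE 0.08, adjusted p = 0.00804), and BON-1 overlapped (log2 fold change -0.10, SE 0.08, adjusted p = 0.369). NUP205 was called lower in QGP-1 (-0.18, SE 0.06, adjusted p = 0.0472). In BON-1 its value was similar without passing the test (-0.15, SE 0.07, adjusted p = 0.102). The difference between the lines was not called for NUP205 (0.03, SE 0.10, adjusted p = 0.883). NUP155 was called in neither line.

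In the central channel, whose nucleoporins carry the phenylalanine-glycine repeats that receptors bind, NUP54 moved in opposite directions. NUP54 (chr4:76107562-76148485, minus strand) read 59.2, 61.96 and 67.3 CPM with vehicle and 52.1, 50.5 and 56.9 CPM with DOX in QGP-1, and 40.4, 47.3 and 46.01 CPM with vehicle and 57.1, 50.7 and 54.00 CPM with DOX in BON-1. It fell in QGP-1 (log2 fold change -0.24, SE 0.08, adjusted p = 0.0333) and rose in BON-1 (log2 fold change 0.28, SE 0.09, adjusted p = 0.0209), with no overlap in either. Both calls depended on single libraries: in QGP-1 it was lost without vehicle replicate 2 or 3 or DOX replicate 1 or 2 (-0.30 to -0.19), and in BON-1 without vehicle replicate 1 or DOX replicate 1 or 3 (0.21 to 0.31) and with library-size scaling (adjusted p = 0.0648, edgeR). NUP62 was called lower in BON-1 (-0.36) and not called in QGP-1 (-0.05), and its difference between the lines was not called. NUP58 was called in neither line.

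Of the 3 membrane nucleoporins, which anchor the pore in the envelope, POM121 and NDC1 were lower in BON-1. NDC1 read 214, 213 and 214 CPM with vehicle and 219, 226 and 209 CPM with DOX in QGP-1, and 119.6, 107 and 109 CPM with vehicle and 94.5, 89.8 and 90.7 CPM with DOX in BON-1. Its QGP-1 treatments overlapped (log2 fold change 0.03, SE 0.06, adjusted p = 0.754) and its BON-1 treatments did not (log2 fold change -0.29, SE 0.08, adjusted p = 0.00549). POM121 read 109, 113 and 91.1 CPM with vehicle and 113, 121 and 102 CPM with DOX in QGP-1, and 104, 99.5 and 91.3 CPM with vehicle and 82.2, 82.6 and 75.6 CPM with DOX in BON-1. The same held for it (log2 fold change 0.11, SE 0.09, adjusted p = 0.395 and log2 fold change -0.30, SE 0.08, adjusted p = 0.00551), and its near-identical copy POM121C was also lower in BON-1. NUP210 was called in neither line.

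At the nuclear basket, TPR rose in both lines, and NUP153 was called in neither. NUP50 was called higher in QGP-1 (0.22) and not called in BON-1 (0.02), and its difference between the lines was not called. TPR (chr1:186311652-186375693, minus strand), the long coiled coil of the basket, read 144, 148 and 135 CPM with vehicle and 187, 195 and 192 CPM with DOX in QGP-1, and 195, 194 and 205 CPM with vehicle and 217, 235 and 242 CPM with DOX in BON-1. Every DOX library lay above every vehicle library (log2 fold change 0.43, SE 0.07, adjusted p = 2.23e-04 and log2 fold change 0.22, SE 0.07, adjusted p = 0.0207). The BON-1 call was lost without vehicle replicate 2 or DOX replicate 2 or 3 (0.17 to 0.26) and with library-size scaling (adjusted p = 0.0565, edgeR). Among the 4 genes named by resemblance, NUP62CL (chrX:107123427-107206433, minus strand) read 17.5, 21.2 and 20.8 CPM with vehicle and 13.5, 14.9 and 13.8 CPM with DOX in QGP-1, and 9.27, 12.9 and 12.6 CPM with vehicle and 7.702, 7.75 and 8.397 CPM with DOX in BON-1. It was lower in both without overlap (log2 fold change -0.50, SE 0.11, adjusted p = 0.00266 and log2 fold change -0.53, SE 0.17, adjusted p = 0.0147), and the BON-1 call was lost without vehicle replicate 2 or 3 (-0.68 to -0.46). RANBP9 was called higher in BON-1 (0.25) and not called in QGP-1 (0.08), and its difference between the lines was not called. RANBP10 was called in neither line, and NUP210L, tested in QGP-1 only, reached at most 0.342 CPM there.

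**Figure D2:**
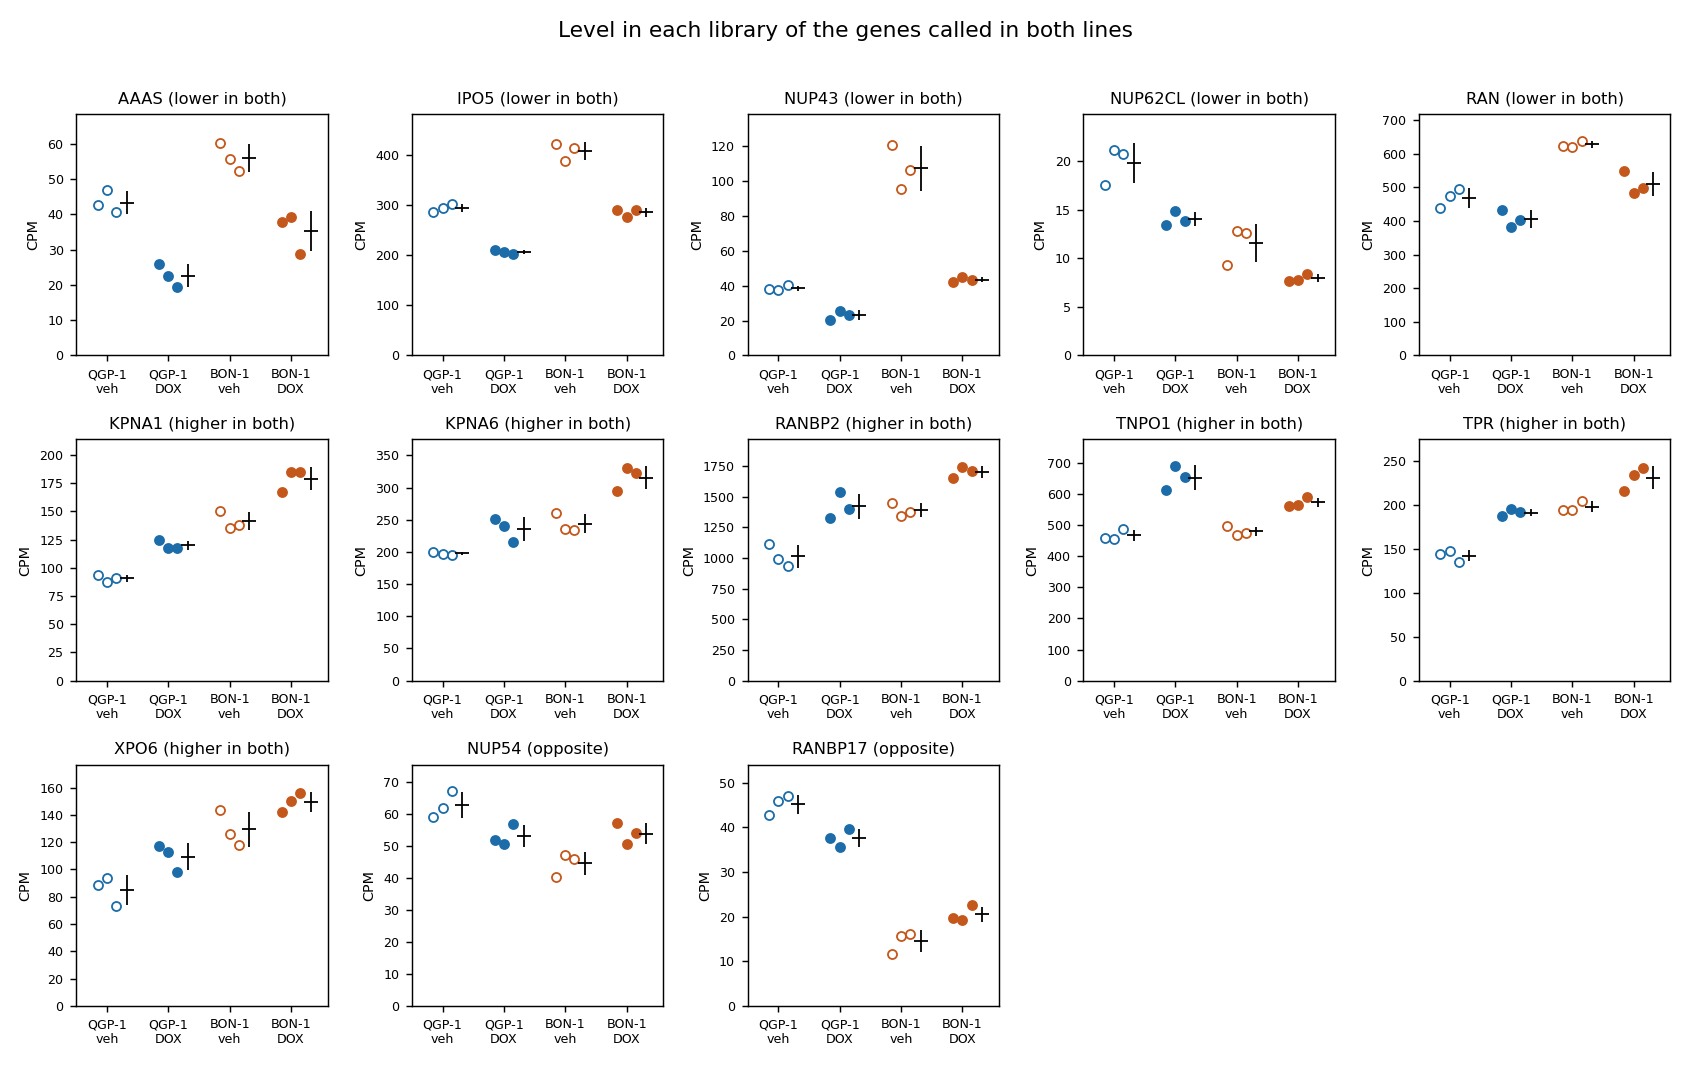
CPM in each of the 12 libraries (open points vehicle, filled points DOX; crosses: mean and SD of 3) for the 13 genes called in both lines. The means of the 5 genes in the top row are lower with DOX in each line, those of the next 6 are higher, and those of NUP54 and RANBP17 are lower in QGP-1 and higher in BON-1; on uncentred TPM the values of RAN, IPO5, NUP43, NUP62CL, NUP54 and RANBP17 in QGP-1 and of KPNA1, RANBP2, TNPO1, TPR, XPO6 and NUP54 in BON-1 have the opposite sign.

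The annotation places other exons over some of these genes. PCMT1 overlaps NUP43, ART3 NUP54, RABEP1 and RPAIN NUP88, TRMT2A RANBP1, PRG4 TPR, SH3GLB2 NUP188, REC8 IPO4 and POLR1C XPO5, each on the opposite strand, while IL4I1 overlaps NUP62 and SNHG3 overlaps RCC1 on the same strand. The libraries were made with a stranded kit, but the counting program and its strand setting are not given in the sources used here. Beside the 9 of RAN, annotated pseudogenes number 3 each for KPNA2, TNPO1 and NUP210, 2 each for NUP35 and IPO7, and 1 each for IPO5, IPO8, KPNA4, KPNB1, NUP50, NUP58 and RANBP1. Further overlaps on the opposite strand are NOL7 with RANBP9, CAPS with RANBP3, PGAP2 with NUP98 and ATF5 with NUP62. On the same strand CHRNA10 overlaps NUP98 and LRRC70 overlaps IPO11. Values of all these genes are uncertain, as are those of further genes here that share exons with other transcripts.

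Whether the response differed between the lines was tested as an interaction in 1 edgeR fit of 12 libraries. It passed for 14 of 59 genes (23.7%, beside 16.7% of all genes tested), 10 with the more negative response in BON-1 (16.9%, beside 7.92%) and 4 with the more positive one (6.78%, beside 8.80%). The more positive were RANBP17 (0.79, SE 0.16, adjusted p = 0.00114), NUP54 (0.53, SE 0.12, adjusted p = 0.00454), NUP35 (0.44, SE 0.14, adjusted p = 0.0301) and CSE1L (0.40, SE 0.10, adjusted p = 0.00889), each given as BON-1 minus QGP-1 on the log2 scale. The more negative fell into 3 kinds. NUP43 fell in both lines and fell further in BON-1 (-0.56, SE 0.14, adjusted p = 0.00742). IPO4 (-0.45, SE 0.14, adjusted p = 0.0264), NUP214 (-0.41, SE 0.11, adjusted p = 0.0134) and NUP188 (-0.40, SE 0.12, adjusted p = 0.0215) had risen in QGP-1 and were not called in BON-1. The remaining 6 were called lower in BON-1 and not called in QGP-1, among them RANBP1 of the Ran cycle and KPNB1, the main import receptor. The difference was -0.43, SE 0.12, adjusted p = 0.0116 for RANBP1, -0.42, SE 0.11, adjusted p = 0.0106 for NUP93 and -0.39, SE 0.13, adjusted p = 0.0332 for POM121. It was -0.38, SE 0.12, adjusted p = 0.0291 for XPO5, -0.31, SE 0.10, adjusted p = 0.03797 for NDC1 and -0.30, SE 0.10, adjusted p = 0.0416 for KPNB1. The inner ring was mixed: NUP93 and NUP188 were more negative in BON-1, NUP35 was more positive, and NUP155 and NUP205 were not called. Of the 3 membrane nucleoporins 2 were more negative, beside 7.92% of all genes tested, and NUP210 was not called.

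These differences rested unevenly on single libraries. RANBP17, NUP54, CSE1L, NUP43, RANBP1, NUP93 and NUP214 passed in all 12 fits that each left out a library. The count dropped from 14 to 7 without QGP-1 vehicle replicate 3, to 7 without QGP-1 DOX replicate 2, and to 9 without BON-1 vehicle replicate 1. NUP35 passed in 3 of the 12 fits (0.33 to 0.51), losing the call without BON-1 vehicle replicate 1, 2 or 3, BON-1 DOX replicate 1 or 3, QGP-1 vehicle replicate 2 or 3, or QGP-1 DOX replicate 1 or 2, and also with library-size scaling (0.37, adjusted p = 0.0698, edgeR). Beyond the 2 QGP-1 libraries named, NDC1, POM121, XPO5 and IPO4 were also lost without BON-1 vehicle replicate 1, XPO5 and KPNB1 without BON-1 DOX replicate 1, and POM121 and IPO4 without BON-1 DOX replicate 3. KPNB1 and NDC1 were further lost without QGP-1 vehicle replicate 1 or 2, and IPO4 without QGP-1 vehicle replicate 2. The difference kept its sign throughout, between -0.38 and -0.28 for KPNB1, -0.36 and -0.27 for NDC1, -0.46 and -0.30 for POM121, -0.48 and -0.32 for XPO5, -0.58 and -0.39 for IPO4, and -0.49 and -0.34 for NUP188.

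**Figure D3:**
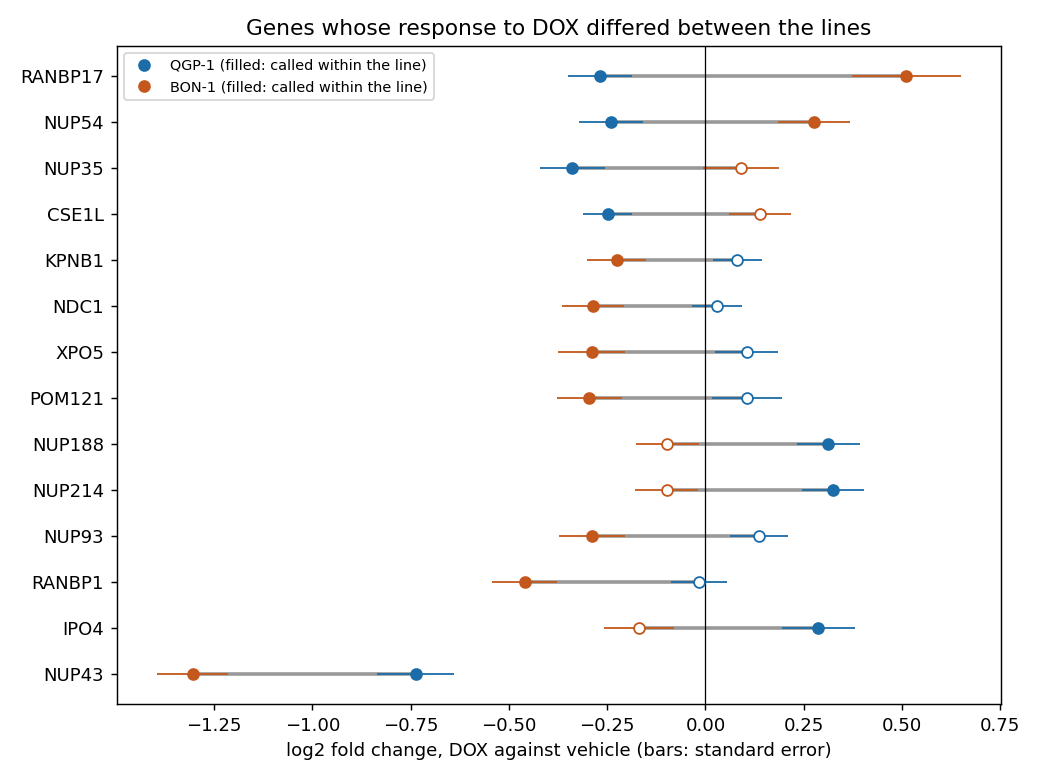
Log2 fold change with DOX (x axis, bars: standard error) in QGP-1 (blue) and BON-1 (orange) for the 14 genes whose response differed between the lines, joined by a grey line and filled where called within the line. RANBP17 and NUP54 have filled points on both sides of 0, and for NUP43 both filled points lie below 0, at -0.74 and -1.30; these values are relative to the bulk of genes, and on uncentred TPM those of NUP43, NUP54, NUP35, CSE1L, RANBP1 and RANBP17 in QGP-1 and of NUP54, NUP35 and CSE1L in BON-1 have the opposite sign.

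The lines already differed widely with vehicle alone. Of the 59 genes tested, 22 were lower and 22 higher in BON-1 than in QGP-1 (74.6% in all, beside 74.9% of all genes tested, of which 37.5% were lower and 37.5% higher). The 4 largest differences toward QGP-1 included 3 pore genes. NUP107, a Y complex gene, read 472, 483 and 489 CPM in QGP-1 and 107, 108 and 108 CPM in BON-1, a log2 difference of -2.16, SE 0.07, adjusted p = 7.19e-19. For RANBP17, one of the least abundant genes here in BON-1, the values were 43.98, 46.97 and 48.3 CPM in QGP-1 and 11.4, 15.3 and 15.4 CPM in BON-1 (-1.73, SE 0.11, adjusted p = 8.62e-13). The other two were NUP88 at the cytoplasmic face and SEH1L, another Y complex gene. NUP88 read 169, 153 and 171 CPM in QGP-1 and 55.4, 56.9 and 48.95 CPM in BON-1 (-1.61, SE 0.09, adjusted p = 1.16e-14). SEH1L read 282, 268 and 289 CPM in QGP-1 and 119.7, 104 and 105 CPM in BON-1 (-1.35, SE 0.07, adjusted p = 2.31e-14). These 4 were picked for the size of this difference, so the lack of overlap between their libraries is no separate result.

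Toward BON-1, the largest was the histone importer IPO4, with 34.1, 31.8 and 29.8 CPM in QGP-1 and 119.6, 99.05 and 104 CPM in BON-1 (1.75, SE 0.10, adjusted p = 3.53e-14). NUP43 read 38.9, 38.5 and 41.2 CPM in QGP-1 and 118, 92.6 and 102 CPM in BON-1 (1.40, SE 0.10, adjusted p = 2.77e-12), and NUP37 read 24.7, 31.5 and 32.03 CPM in QGP-1 and 63.9, 79.9 and 80.7 CPM in BON-1 (1.34, SE 0.11, adjusted p = 3.63e-11). Within the one Y complex, NUP107 and SEH1L were thus higher in QGP-1 and NUP43 and NUP37 in BON-1, and all 8 genes of that group were called one way or the other, beside 74.9% of all genes tested. RCC1 was higher in BON-1 as well, with 27.2, 27.9 and 24.7 CPM in QGP-1 and 65.3, 58.6 and 65.5 CPM in BON-1 (1.25, SE 0.09, adjusted p = 4.65e-12), and 4 of the 5 tested Ran cycle genes were higher there, beside 37.5% of all genes tested. Line, medium and any difference in sequencing run cannot be told apart in this comparison.

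**Figure D4:**
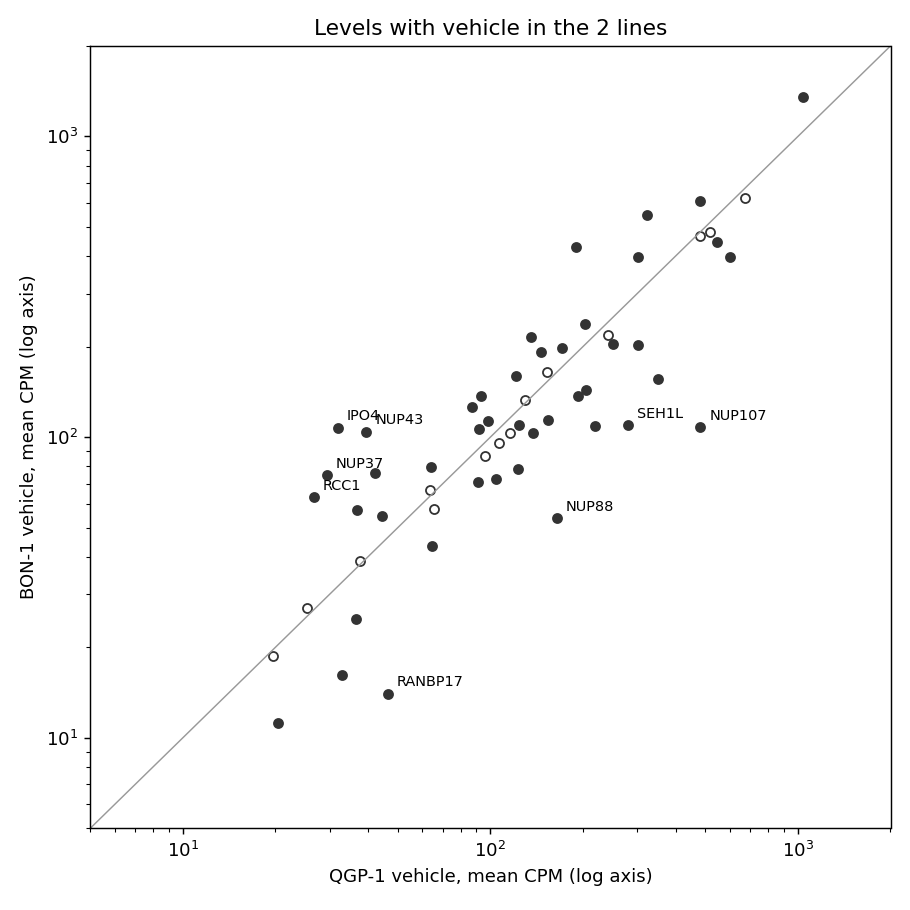
Mean CPM of 3 vehicle libraries in QGP-1 (x axis, log scale) and BON-1 (y axis, log scale) for each gene with filled points for adjusted p below 0.05 and a line of equal level. The labelled NUP107, NUP88, SEH1L and RANBP17 lie below the line and IPO4, NUP43, NUP37 and RCC1 above it.

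Levels can be compared between genes only per length, and for this the authors' TPM values were expressed as a share of the summed TPM of the 61 genes in each library. A few transport factors made up much of that sum. KPNA2 held 8.63% ± 0.375 of it in QGP-1 with vehicle and 8.03% ± 0.253 in BON-1, and RAN held 8.598% ± 0.547 and 10.96% ± 0.374. With DOX the RAN share was 7.500% ± 0.471 in QGP-1 and 9.32% ± 0.668 in BON-1. With vehicle, RAN and KPNA2 thus differed by less than their spread in QGP-1, and RAN stood first in BON-1 with either treatment. The share of CSE1L with vehicle was 3.92% ± 0.0274 in QGP-1 and 6.66% ± 0.2896 in BON-1. That of RANBP2 went from 3.68% ± 0.326 to 5.19% ± 0.417 with DOX in QGP-1 and from 4.798% ± 0.0461 to 6.15% ± 0.187 in BON-1. NUP43 held 0.445% ± 0.0165 and 1.18% ± 0.102 with vehicle and 0.2695% ± 0.0338 and 0.501% ± 0.0205 with DOX.

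**Figure D5:**
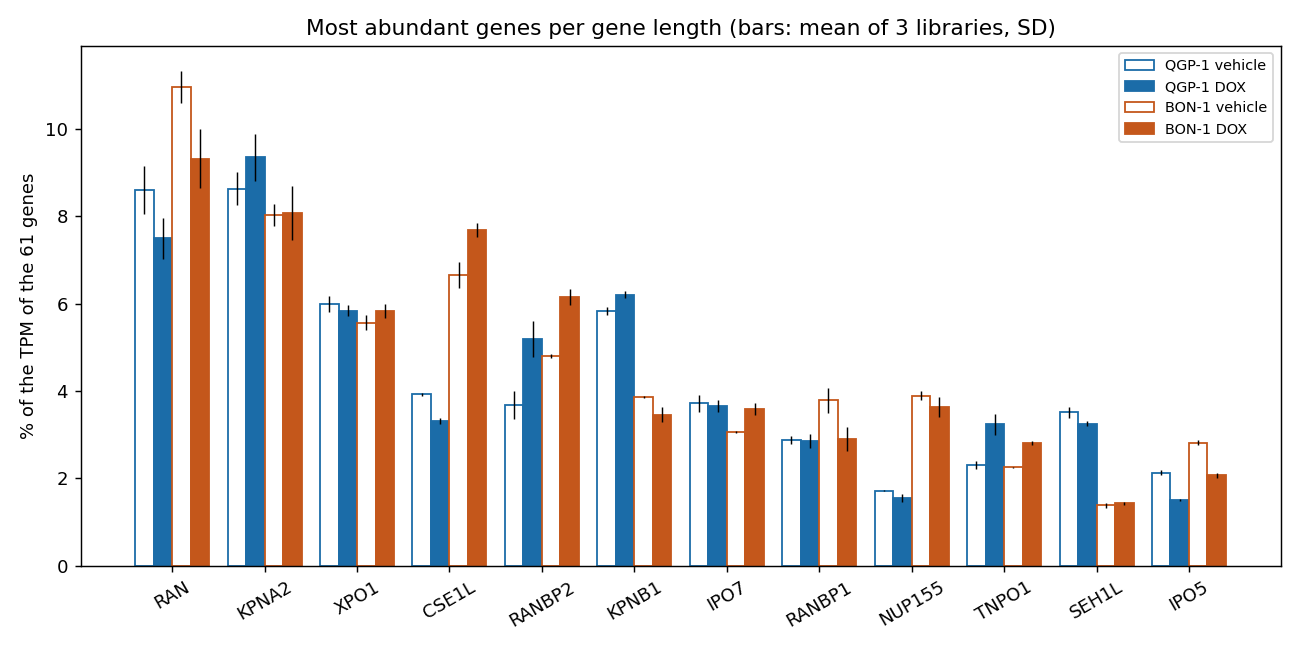
Share of the summed TPM of all 61 genes (y axis, percent; bars: mean of 3 libraries with SD) for the 12 genes with the highest shares, in the 4 groups. RAN is the tallest bar in BON-1 and lies near KPNA2 in QGP-1 with vehicle, and its share is smaller with DOX in each line.

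Over the 12 libraries, with the mean of each line removed from log2 CPM, the genes whose pattern was most like that of RAN were IPO5 (Pearson r = 0.91), NUP43 (r = 0.84) and AAAS (r = 0.82). The libraries share treatment and scaling, so these values describe the pattern and carry no p.

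Other genes of the pathway were taken from lists of further pore components, transport receptors and carriers, mRNA export factors, lamina and envelope genes and RANBP2 copies, 54 of 56 of which were in the tables. In QGP-1, 12 of the 49 tested were lower (24.5%) and 6 higher (12.2%), and in BON-1 15 of 48 were lower (31.2%) and 3 higher (6.25%), beside 17.7% and 17.3% of all genes tested in QGP-1 and 18.3% and 17.0% in BON-1. The median log2 fold change was -0.02 in QGP-1 and -0.10 in BON-1, each beside -0.01 for all genes tested. Lower in both lines were 5 genes (over all genes the share lower in both was 7.23%), RANGRF, a RAN-binding protein also called MOG1, DDX19B, the helicase that releases mRNA at the cytoplasmic face, THOC7 and ENY2, subunits of complexes that couple transcription to export, and TMPO, a lamina-binding membrane protein. Their log2 fold changes in QGP-1 and BON-1 were -0.44 and -0.54 for RANGRF, -0.28 and -0.31 for DDX19B, and -0.64 and -0.54 for THOC7. For ENY2 they were -0.42 and -0.54, and for TMPO -0.25 and -0.53. NXT2, a partner of the mRNA export receptor NXF1, was lower in QGP-1 (-0.48) and higher in BON-1 (0.45).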

How the data were processed

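RNA-seq was measured in 12 libraries (TruSeq Stranded mRNA). The authors aligned reads with STAR to GRCh38 and deposited raw gene counts, whole numbers per gene with no scaling, and TPM, which scales transcripts for length and library, in separate tables for each line. The counting program, its strand setting and its handling of reads with several matches are not given in the sources used here. TPM tables held 25540 genes for QGP-1 and 25544 for BON-1, were normalized separately, and served for shares and for 1 alternative. All columns of samples were used.

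Samples were grouped by the line and treatment in their labels. Counts were tested in R 4.3.3 with edgeR 4.0.16 (quasi-likelihood test, filterByExpr, TMM, Benjamini-Hochberg over all genes tested, adjusted p below 0.05, no minimum fold change), 3 libraries against 3 within a line, and as 1 fit of 12 libraries and 4 groups for the comparison of the lines. CPM used TMM-scaled library sizes, from each line's own fit for DOX effects and from the 12-library fit for the baseline. Alternatives were DESeq2 1.42.0, which the study's methods name, library-size scaling, no filter on low counts, a minimum of 10 counts in every library, both lines in 1 fit, replicate number as a block, leaving out each library, and limma 3.58.1 on log2(TPM + 1), keeping genes whose mean TPM reached 1. The scripts were tested on simulated data with known fold changes. An exact permutation test of 3 against 3 cannot go below p = 0.1 and was not used. No replicate pair agreed within sampling noise.

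Genes given in every library were those of the core transport cycle and NUP43, those called in both lines or for the difference between lines, and the 4 called genes with the largest absolute log2 fold change for each line and direction at a mean log2 CPM of at least 3 (for the baseline, the 4 largest each way). Further genes are named with their call alone or its log2 fold change. The members, role lists, pathway lists and markers were chosen with earlier results of these data known. Positions are from the GENCODE annotation of GRCh38 and promoters from RefSeq.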

Additional observations from a re-analysis of the deposited data

Results flagged for a closer look

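The response to DOX differed between the lines for 14 genes by the interaction test in edgeR (adjusted p below 0.05 over all genes tested), and each is flagged for that reason. As BON-1 minus QGP-1 on the log2 scale, the difference was 0.79 for RANBP17, 0.53 for NUP54, 0.44 for NUP35 and 0.40 for CSE1L. It was -0.56 for NUP43, -0.45 for IPO4, -0.43 for RANBP1, -0.42 for NUP93, -0.41 for NUP214, -0.40 for NUP188, -0.39 for POM121, -0.38 for XPO5, -0.31 for NDC1 and -0.30 for KPNB1. NUP54 and RANBP17 were called in opposite directions within the lines. No cause was tested.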

How the results depend on the processing

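Counts of called genes stayed within 1.5 times of the values in the report under DESeq2, library-size scaling, both low-count filters and, for the lines, 1 joint fit. On log2(TPM + 1), limma called 0 lower and 52 higher in QGP-1 and 1 lower and 0 higher in BON-1, and the sign of these QGP-1 values, called on at least one of the scales, turned: CSE1L 0.48, IPO5 0.22, NUP35 0.38, NUP37 0.14, NUP43 0.0021, NUP54 0.46, NUP62CL 0.21, NUP88 0.21, RAN 0.53, RANBP1 0.70, RANBP17 0.38, RANGAP1 0.60, RCC1 0.57 and XPO1 0.68. In BON-1 the turned values of that kind were KPNA1 -0.021, NUP54 -0.083, RANBP2 -0.073, TNPO1 -0.11, TPR -0.13 and XPO6 -0.15, and CSE1L (-0.22), NUP35 (-0.27) and XPO1 (-0.36) turned without being called on either scale. With the median of all genes on that scale removed (0.59 and -0.31), all 20 calls in each line of genes given in every library kept their sign. Leaving out each library in turn gave 8 to 11 lower and 8 to 12 higher in QGP-1, 12 to 15 lower and 5 to 8 higher in BON-1 (5 without BON-1 DOX replicate 3), 7 to 16 differing between the lines, and 21 to 25 lower and 19 to 22 higher at baseline. The cause of these shifts was not tested. Same-numbered vehicle and DOX libraries did not deviate together (correlations of -0.07, 0.12 and 0.09 in QGP-1 and -0.06, -0.04 and 0.09 in BON-1), and not every library correlated best with its own number, so the numbers are not treated as pairs. With the replicate number as a block, 13 were lower and 13 higher in QGP-1, 13 and 8 in BON-1, and 13 differed between the lines, with the calls of RCC1 and XPO6 in BON-1 and of KPNB1 and NDC1 for the difference not passing. BON-1 depth limits the less abundant genes most.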
